A study of Homo sapiens with 9 samples.

Results

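N6-methyladenosine (m6A) is the most abundant internal modification of mRNA, and with inosine it is one of the main marks that a cell places on adenosine. The genes described here write, remove or bind m6A: the writers METTL3, METTL14, WTAP and RBM15, the erasers FTO and ALKBH5, and the readers YTHDF1, YTHDF2, YTHDF3 and YTHDC1. They were taken as a fixed list of symbols and mapped to Ensembl gene identifiers. All 10 were found among the 54562 genes of the deposited table, and all 10 were among the 13801 genes whose mean over the libraries reached 1 FPKM (fragments per kilobase of a gene, relative to the size of the library). The question was how far their mRNA levels differed when ADARB1, an enzyme that edits adenosine to inosine, was overexpressed.

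RNA-seq was performed on HEK293 cells, an established human embryonic kidney line. The cells were transiently transfected with the empty vector (EV), with a plasmid for the ADARB1 isoform without the *Alu* exon (Short) or with a plasmid for the isoform that includes it (Long). The vector carries a cytomegalovirus promoter, so the ADARB1 mRNA came from a strong viral promoter in addition to the cells' own gene. Transfections were repeated in 3 cell passages and polyadenylated RNA was collected at 48 hours, so each group had 3 libraries, 9 altogether. All libraries came from the same cell line, and p-values measure the spread between repeated transfections of it.

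m6A is laid down during transcription by a complex in which METTL3 carries out the methyl transfer, METTL14 holds the RNA substrate, WTAP anchors the pair in nuclear speckles, and RBM15 brings the complex to its sites. FTO and ALKBH5 are iron-dependent dioxygenases that can take the methyl group off again. Proteins with a YTH domain bind the mark, YTHDC1 in the nucleus and the 3 YTHDF proteins in the cytoplasm, where YTHDF2 in particular is known for directing mRNA to decay.

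The catalytic sites of the enzymes are shown because they separate the roles within the list. METTL3 holds the Asp-Pro-Pro-Trp motif of an active adenine methyltransferase, and METTL14 has Glu-Pro-Pro-Leu at the matching place and is not itself active. FTO and ALKBH5 bind iron through a His-X-Asp motif with a more distant histidine. The coding sequences below were read 5′ to 3′ from the reference transcripts of GRCh37 (GENCODE), with the codons of the motif in capitals.
METTL3: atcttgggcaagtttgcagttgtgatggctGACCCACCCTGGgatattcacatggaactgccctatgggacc
METTL14: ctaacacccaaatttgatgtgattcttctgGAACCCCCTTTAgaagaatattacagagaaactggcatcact
FTO: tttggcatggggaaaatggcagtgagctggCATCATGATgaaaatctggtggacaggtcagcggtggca
ALKBH5: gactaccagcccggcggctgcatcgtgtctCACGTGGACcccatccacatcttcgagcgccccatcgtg

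The METTL3 stretch lies in exon 6 at chr14:21968717-21968788 on the minus strand and its motif starts at residue 395 of 580. The METTL14 stretch lies in exon 7 at chr4:119618377-119618448 on the plus strand and its motif starts at residue 192 of 456. The FTO stretch lies in exon 3 at chr16:53860313-53860381 on the plus strand (residue 231 of 505), and the ALKBH5 stretch lies in exon 1 at chr17:18088137-18088205 on the plus strand (residue 204 of 394). Each stretch lies within 1 coding exon. The METTL3 and METTL14 motifs were each found once in their protein. For FTO and ALKBH5 the search also required a later histidine and arginine at a set spacing, and this longer pattern was found once in each.

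The ADARB1 level separated the plasmid libraries from the EV libraries. ADARB1 ranged from 7.66 to 8.61 FPKM in the EV libraries, from 1889 to 4145 FPKM in the Short libraries and from 1695 to 3449 FPKM in the Long libraries. The Short and Long ranges overlapped, but within each passage ADARB1 was lower in Long than in Short (log2 differences -0.16, -0.265 and -0.40). The estimate of Long against Short was -0.27 (limma adjusted p = 0.783), and 18.5% of all genes tested were lower in Long in every passage. By qRT-PCR and western blot the paper found the levels of the isoforms to be similar. The gene-level values hold no isoform, so they do not check which plasmid a library received. The cytoskeletal genes VIM, KRT8, KRT18 and NEFM, which HEK293 cells are known to express, had means of 60.8 to 190.9 FPKM over the 9 libraries, and the kidney transcription factor PAX2 had a mean of 2.47 FPKM. Of the markers of other cell types, PTPRC (leukocytes), ALB (hepatocytes), MYH7 (cardiac muscle) and CDH5 (endothelium) had means of at most 0.147 FPKM, and GFAP (astrocytes) had a mean of 0.684 FPKM. Summed over the whole table, a library held 517170 to 541348 FPKM in EV, 533531 to 589535 in Short and 544461 to 567585 in Long, and each Short and Long library had a larger sum than the EV library of its passage. Its part in the counts of genes higher in every passage was not tested. The number of fragments in each library is not given, so no counting interval was computed.

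All 10 genes were expressed well within the range of the transcriptome, and FPKM, being per length, allows their levels to be compared. ALKBH5 had the highest mean and METTL14 the lowest. In EV the levels were 51.8 ± 7.77 FPKM for ALKBH5, 46.3 ± 2.94 FPKM for METTL3 and 44.6 ± 2.92 FPKM for YTHDF2 (SD, n = 3 each). The 3 EV libraries of neighbouring genes in this order overlapped, and differences between these 3 levels were not tested. WTAP followed with 34.8 ± 3.78 FPKM, YTHDC1 with 32.1 ± 3.18 FPKM and FTO with 31.1 ± 2.75 FPKM, which also overlapped one another and lay below every EV value of YTHDF2. YTHDF1 (23.6 ± 1.25 FPKM) and YTHDF3 (17.0 ± 2.44 FPKM) each stood apart from the gene above, and RBM15 (12.3 ± 0.613 FPKM) stood apart from YTHDF3. METTL14 (10.1 ± 2.81 FPKM) overlapped RBM15. Of the neighbours that overlapped, METTL3 was above YTHDF2 and WTAP above YTHDC1 in every EV library. Over the 9 libraries, 42.9% of the genes tested had a lower mean than METTL14 and 88.5% a lower mean than ALKBH5. The median gene tested had 11.6 FPKM.

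**Figure D1:**
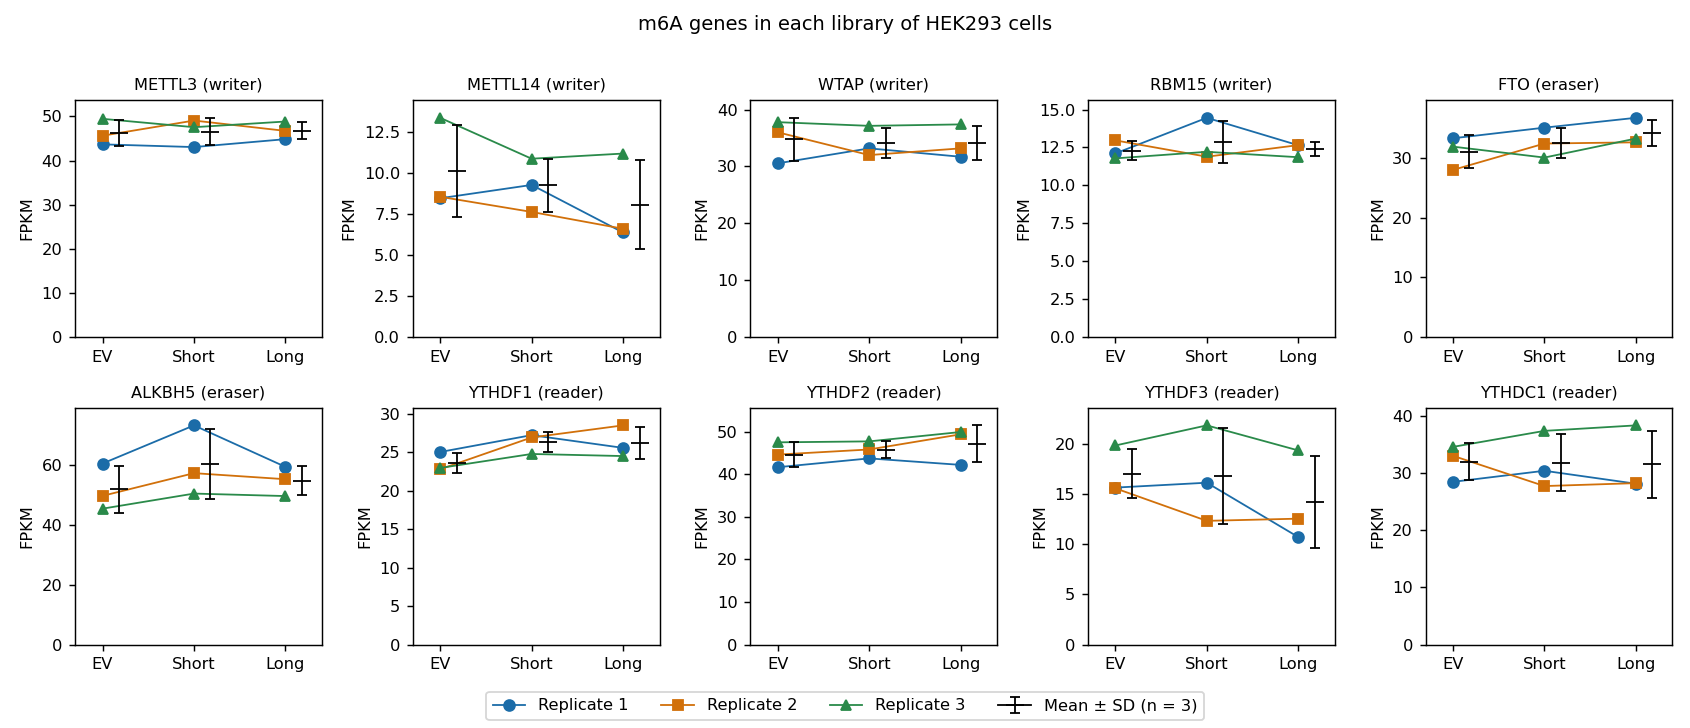
FPKM of the 10 m6A genes (vertical axes, each from 0) in the EV, Short and Long libraries. Points joined by a line are libraries with the same replicate number, and black bars give the mean ± SD (n = 3). METTL14 and YTHDF3 were highest in replicate 3 in each group, ALKBH5 was highest in replicate 1 in each group, and the groups overlapped for every gene.

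Neither ADARB1 plasmid moved any of the 10 genes past the threshold (limma on log2(FPKM + 1) with the replicate number as a block, Benjamini-Hochberg adjusted p under 0.05 over all genes tested). For Short against EV 0 of the 10 genes passed, where 0.0362% of all genes tested did, and 2 had an unadjusted p under 0.05, both higher, where 22% of all genes did (15.2% higher and 6.88% lower). For Long against EV 0 of the 10 passed, where 8.32% of all genes did, and 2 had an unadjusted p under 0.05, both lower, where 24.4% of all genes did (12.4% higher and 12% lower). For Long against Short 0 of the 10 passed, where 0.00725% of all genes did, and 0 had an unadjusted p under 0.05, where 7.54% did. The 3 libraries of a plasmid group and the 3 EV libraries overlapped for each of the 10 genes; they did not overlap for 13% of all genes in Short and 13.6% in Long. Nor did Long and Short separate for any of the 10, where 3.83% of all genes did. In Short 3 of the 10 were higher than EV in every passage and 0 lower (32% and 13.4% of all genes), and in Long 3 were higher and 2 lower (27.4% and 18.1%). Short and Long were compared with the same EV libraries, so their differences from EV are not independent of each other. The median log2 fold change of the 10 genes was 0.023 for Short and 0.015 for Long against EV, beside 0.041 and 0.039 for all genes tested. These are levels in RNA from whole cultures, in which a change in fewer cells and a smaller change in every cell cannot be told apart.

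**Figure D2:**
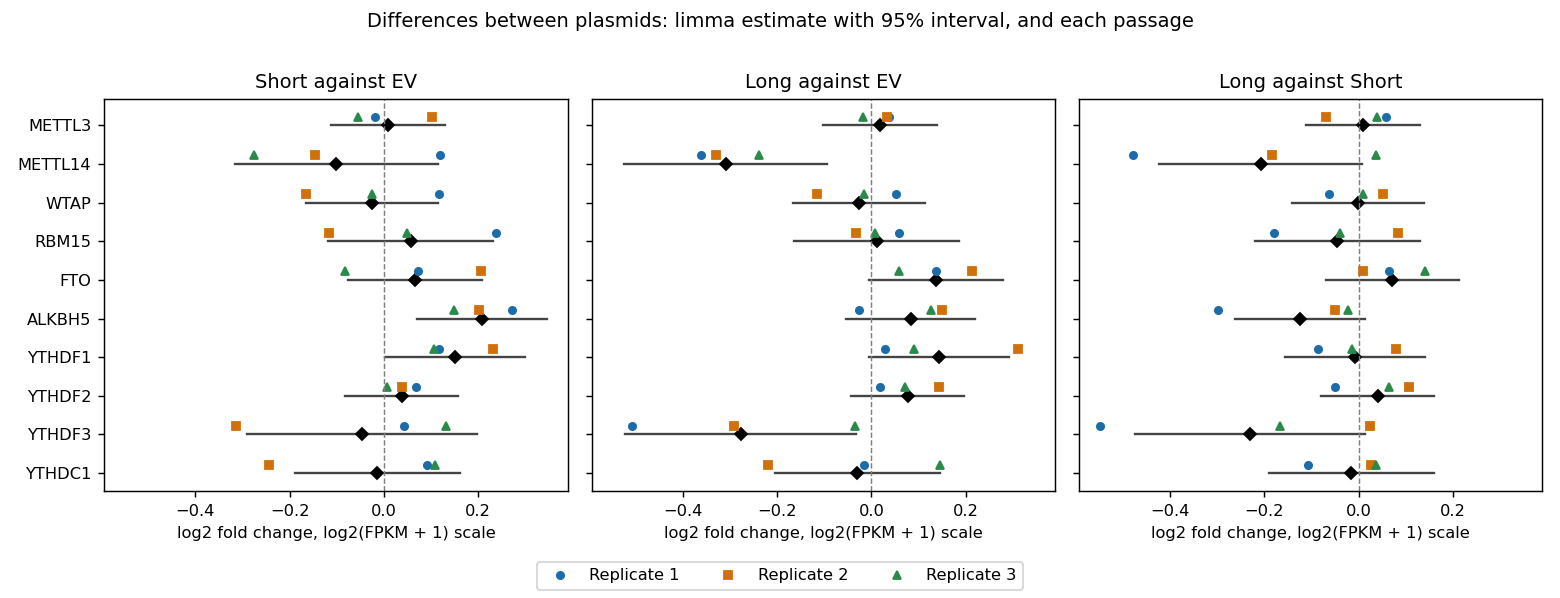
Difference of the 10 m6A genes between plasmids on the log2(FPKM + 1) scale (horizontal axis). Black diamonds are the limma estimates with their 95% intervals, and coloured points are the differences within each passage. The estimates lie between -0.31 and 0.21; METTL14 and YTHDF3 lie lowest for Long against EV, and ALKBH5 lies highest for Short against EV.

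Among the writers, METTL3 was the gene with the steadiest level. METTL3 (ENSG00000165819) lies on the minus strand of chromosome 14 from 21966277 to 21979484. Its level was 43.7, 45.6 and 49.5 FPKM in EV replicates 1, 2 and 3, while the Short libraries had 43.1, 49.1 and 47.6 FPKM and the Long libraries 44.8, 46.7 and 48.9 FPKM. No group stood apart, and the coefficient of variation over the 9 libraries, 5.1%, was the lowest of the 10 genes. The log2 fold change was 0.0091 for Short against EV (95% interval -0.11 to 0.13, limma adjusted p = 0.939) and 0.018 for Long against EV (95% interval -0.10 to 0.14, adjusted p = 0.88). Its sign turned to negative when the libraries were rescaled to the same sum (-0.074 and -0.057).

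METTL14, the partner of METTL3, had the lowest estimate in Long. The gene (ENSG00000145388) lies on the plus strand of chromosome 4 from 119606547 to 119636588. Its level was 8.46, 8.55 and 13.4 FPKM in EV replicates 1, 2 and 3, while the Short libraries had 9.27, 7.62 and 10.9 FPKM and the Long libraries 6.37, 6.60 and 11.2 FPKM. Replicate 3 was highest in every group, and within each passage the Long library was below the EV library. The log2 fold change of Long against EV was -0.31 (standard error 0.097, 95% interval -0.52 to -0.094), with -0.36, -0.33 and -0.24 in the 3 passages and an adjusted p of 0.0803 from limma. It passed when the libraries were rescaled to the same sum (-0.40, adjusted p = 0.0268) or by the median ratio (-0.34, adjusted p = 0.0398). After each library was corrected for GC content it was -0.15 (adjusted p = 0.41), and without the replicate block the adjusted p was 0.723. For Short against EV the passages differed in sign (0.12, -0.15 and -0.28), with an estimate of -0.10 (adjusted p = 0.567).

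The adaptor proteins of the writer complex showed small differences with no common direction over the passages. WTAP (chromosome 6, 160146617 to 160177351, plus strand) had 34.8 ± 3.78, 34.1 ± 2.69 and 34.1 ± 2.96 FPKM with EV, Short and Long, respectively. RBM15 (chromosome 1, 110881128 to 110889303, plus strand) had 12.3 ± 0.613 FPKM with EV (SD, n = 3) and ranged from 11.9 to 14.5 FPKM with Short and from 11.9 to 12.7 FPKM with Long. For neither gene did the 3 passages share a direction against EV with either plasmid. The 95% intervals for Long against EV were -0.17 to 0.11 for WTAP and -0.16 to 0.19 for RBM15 on the log2 scale.

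The erasers had estimates above 0 for both plasmids, and neither passed. ALKBH5 (ENSG00000091542) lies on the plus strand of chromosome 17 from 18086392 to 18113268. Its level was 60.5, 49.7 and 45.4 FPKM in EV replicates 1, 2 and 3, while the Short libraries had 73.2, 57.2 and 50.4 FPKM and the Long libraries 59.4, 55.2 and 49.6 FPKM. In every group replicate 1 was highest and replicate 3 lowest, and the Short library was above the EV library of the same passage in each passage. The log2 fold change of Short against EV was 0.21 (standard error 0.062, 95% interval 0.070 to 0.34), with 0.27, 0.20 and 0.15 in the passages and an adjusted p of 0.119 from limma. After the GC correction it was 0.092 (adjusted p = 0.46). For Long against EV it was 0.083 (adjusted p = 0.446), with -0.026, 0.15 and 0.13 in the passages, and -0.0048 after the GC correction. FTO (chromosome 16, 53735604 to 54192424, plus strand) had 31.1 ± 2.75, 32.5 ± 2.51 and 34.2 ± 2.21 FPKM with EV, Short and Long (SD, 3 libraries). It was higher in Long than in EV in each passage (0.14, 0.21 and 0.058), with a log2 fold change of 0.14 (95% interval -0.0054 to 0.28, adjusted p = 0.222 from limma). For Short against EV the FTO passages differed in sign (0.073, 0.20 and -0.083), with an estimate of 0.065 (limma adjusted p = 0.576). That estimate was -0.017 when the libraries were rescaled to the same sum.

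Of the cytoplasmic readers, YTHDF3 was the one with a negative estimate in Long. YTHDF3 (chromosome 8, 64081112 to 64125344, plus strand) had 15.6, 15.5 and 19.8 FPKM in EV replicates 1, 2 and 3, while the Short libraries had 16.1, 12.3 and 21.8 FPKM and the Long libraries 10.7, 12.5 and 19.3 FPKM. As with METTL14, replicate 3 was highest in every group, and each Long library was below the EV library of its passage. The log2 fold change of Long against EV was -0.28 (standard error 0.11, 95% interval -0.52 to -0.033), with -0.51, -0.29 and -0.035 in the passages. The limma adjusted p was 0.155, and it ranged from 0.0864 to 0.757 over the 13 alternatives. After the GC correction the estimate was -0.14, and without replicate 1 it was -0.16.

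YTHDF1, which is known for promoting translation of marked mRNA, had positive estimates with both plasmids. YTHDF1 (chromosome 20, 61826781 to 61847491, minus strand) had 25.0, 22.8 and 23.0 FPKM in EV replicates 1, 2 and 3, while the Short libraries had 27.2, 26.9 and 24.8 FPKM and the Long libraries 25.6, 28.5 and 24.5 FPKM. Each plasmid library was above the EV library of its passage, while the groups overlapped through EV replicate 1. The log2 fold change was 0.15 for Short (95% interval 0.0029 to 0.30, limma adjusted p = 0.219) and 0.14 for Long (95% interval -0.0049 to 0.29, adjusted p = 0.22). After the GC correction they were 0.074 and 0.067, under TPM scaling 0.071 and 0.072, and Long without replicate 2 was 0.060. YTHDF2 (chromosome 1, 29063133 to 29096287, plus strand) ranged from 41.6 to 47.5 FPKM with EV, from 43.7 to 47.7 FPKM with Short and from 42.2 to 49.9 FPKM with Long. Each plasmid library was above the EV library of its passage for YTHDF2 as well. The YTHDF2 estimates were smaller, 0.038 for Short and 0.077 for Long (adjusted p = 0.715 and 0.414 from limma). The nuclear reader YTHDC1 (chromosome 4, 69176105 to 69215808, minus strand) was 32.1 ± 3.18, 31.9 ± 4.99 and 31.6 ± 5.87 FPKM in EV, Short and Long (SD, n = 3 each), and its passages did not share a direction with either plasmid.

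In each passage ADARB1 was lower in Long than in Short, though this difference did not pass the threshold. Any effect of the isoform thus cannot be told apart from one of the ADARB1 level. Between the isoforms, none of the 10 genes passed. Their estimates of Long against Short that lay furthest from 0 were -0.23 for YTHDF3 (95% interval -0.48 to 0.014, limma adjusted p = 0.682) and -0.21 for METTL14 (95% interval -0.42 to 0.0074, adjusted p = 0.665). ALKBH5 followed with -0.12 (95% interval -0.26 to 0.013, adjusted p = 0.706). In replicate 1 the Long library was below the Short library for these 3 genes, by 0.55, 0.48 and 0.30 on the log2 scale, and in replicate 3 the METTL14 difference was 0.038. Without replicate 1 the 3 estimates were -0.072, -0.073 and -0.037. ALKBH5 alone of the 10 was lower in Long than in Short in each passage, which 18.5% of all genes were, and FTO alone was higher in each passage, which 10.2% of all genes were.

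A ratio of 2 genes within a library does not depend on a factor common to the library, though it can depend on the base composition of the 2 genes. The proportions of the m6A machinery were compared in this way. METTL14 was present at 0.194, 0.187 and 0.270 of the METTL3 level in EV replicates 1, 2 and 3, at 0.215, 0.155 and 0.229 in Short, and at 0.142, 0.141 and 0.229 in Long. The ratio was lower in Long than in EV in each passage, and replicate 3 was highest in every group. The mean log2 difference of Long from EV was -0.36 ± 0.111 (SD over 3 passages), and an exact two-sided permutation test of 3 libraries against 3 gave p = 0.3 (0.764 adjusted over the 12 ratio tests). That test cannot give a p below 0.1, and the sign-flip permutation test of 3 pairs, which gave 0.25, cannot go lower. After the GC correction the difference was -0.17. FTO was at 0.606 ± 0.0843 of the ALKBH5 level in EV, 0.547 ± 0.0608 in Short and 0.627 ± 0.0404 in Long (SD, n = 3 each), with no common direction against EV.

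Within the YTHDF family YTHDF2 held the largest share of the summed FPKM in every library. Its share was 50.2% to 54.6%, that of YTHDF1 25.5% to 32.6%, and that of YTHDF3 13.6% to 23.1%. The summed FPKM of the family was 78.5 to 94.3. YTHDF3 was at 0.375, 0.349 and 0.417 of the YTHDF2 level in EV and at 0.254, 0.254 and 0.387 in Long. It was thus lower in Long in each passage, by 0.57, 0.46 and 0.11 on the log2 scale (mean -0.38; exact two-sided permutation test, p = 0.3, adjusted 0.764), and the mean was -0.16 after the GC correction. The YTHDF1 to YTHDF2 ratio was 0.532 ± 0.0616 in EV, 0.577 ± 0.0527 in Short and 0.559 ± 0.0599 in Long (SD, n = 3 each). It was higher than in EV in each passage with either plasmid, with mean log2 differences of 0.12 and 0.070 (exact permutation p = 0.4 and 0.7). The Long difference was 0.012, 0.18 and 0.022 in the passages and 0.017 without replicate 2, and the Short difference was 0.077 without it. None of the 12 ratio tests gave an adjusted p below 0.764, which this number of libraries could not have brought under 0.05.

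**Figure D3:**
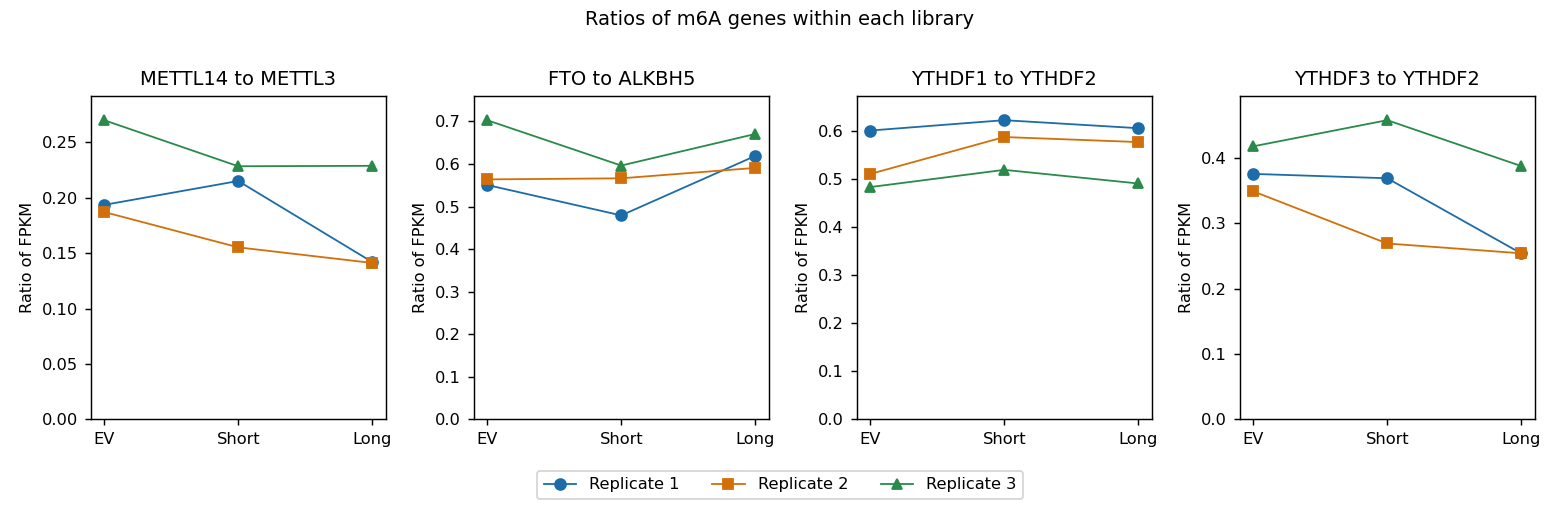
Ratio of the FPKM of 2 m6A genes in each library (vertical axes, each from 0) by plasmid; lines join libraries with the same replicate number. In replicate 1, with the largest drop, METTL14 to METTL3 was 0.194 in EV and 0.142 in Long, and YTHDF3 to YTHDF2 was 0.375 and 0.254. In replicate 3, with the smallest, they were 0.270 and 0.229, and 0.417 and 0.387. The 3 libraries of each group overlap those of the others.

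For 9 of the 10 genes, YTHDF1 being the exception, more of the variation lay between passages than between plasmids. In the same limma fit, 5 of the 10 genes differed between passages (moderated F test, adjusted p under 0.05), where 36.4% of all genes tested did: METTL14 (adjusted p = 0.00245), ALKBH5 (0.00257), YTHDF3 (0.00498), YTHDC1 (0.0132) and WTAP (0.0397). Over the alternatives 2 to 7 of the 10 passed, with 2 without the filter on low values, 4 without the trend, 6 with a minimum mean of 5 FPKM, and 7 under TPM, the median ratio or the length correction. METTL14 averaged 8.03, 7.59 and 11.8 FPKM over the 3 libraries of replicates 1, 2 and 3, and YTHDF3 averaged 14.1, 13.5 and 20.3 FPKM. ALKBH5 averaged 64.3, 54.0 and 48.5 FPKM. Thus replicate 3 had the most METTL14 and YTHDF3 mRNA and the least ALKBH5 mRNA. Passage took 68.9% to 79.3% of the sum of squares in METTL3, METTL14, WTAP, ALKBH5, YTHDF2, YTHDF3 and YTHDC1, and 24.7% to 50.8% in YTHDF1, RBM15 and FTO. The plasmid took at most 28.2% except in YTHDF1, where it took 49.6%. Over all genes tested the medians were 49.8% for passage and 19.9% for plasmid. The labels give the replicate numbers and no other property of the passages, so what differed between them was not tested.

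The estimates against EV correlated with the base composition of the transcripts. The GC content of the longest annotated transcript was 38.3% for METTL14, 38.8% for YTHDF3 and 40.3% for YTHDC1, 42.7% to 46.5% for METTL3, WTAP, FTO and YTHDF2, and 50.9%, 54.9% and 57.6% for YTHDF1, RBM15 and ALKBH5, beside a median of 47.8% for all genes tested. The Spearman correlation across the 10 genes between GC content and log2 fold change was 0.90 for Short and 0.77 for Long against EV, and 0.25 for Long against Short. Over the 13398 genes with a known sequence it was 0.62, 0.52 and 0.037. The genes share the same libraries and are not independent replicates, so this is a description. After the GC correction METTL14, YTHDF3 and YTHDC1 had log2 fold changes of 0.0079, 0.051 and 0.051 for Short against EV, in place of -0.10, -0.047 and -0.014.

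**Figure D4:**
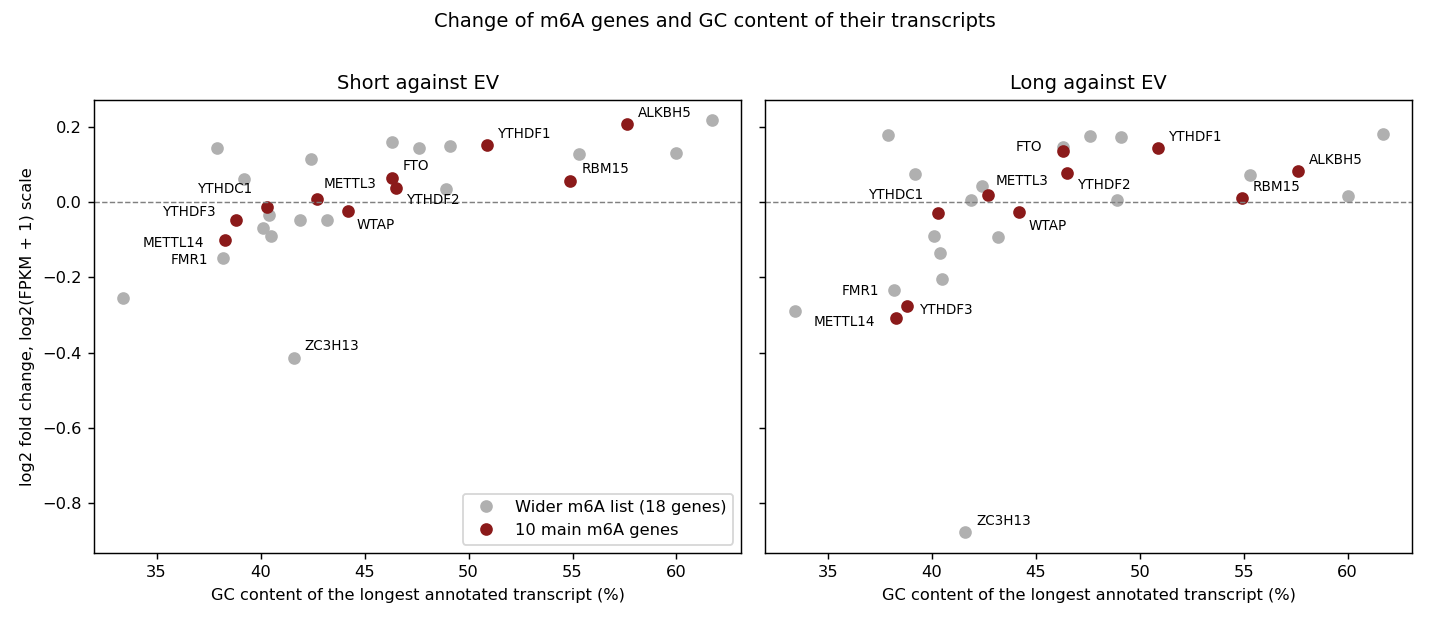
log2 fold change against EV (vertical axis) and GC content of the longest transcript (horizontal axis) for the 10 m6A genes (red) and 18 further genes of the m6A pathway (grey), for Short (left) and Long (right). METTL14 and YTHDF3, with 38.3% and 38.8% GC, lie lowest among the 10 in Long, and ZC3H13, with 41.6% GC, lies lowest of all 28 genes in Long, at -0.88.

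Further m6A genes were taken from a list of 19 writer subunits, methyltransferases and readers, of which 18 were measured (RBM15B was not analysed here). For Long against EV 2 of the 18 passed, both lower, where 6.33% of all genes tested passed as lower, and 9 had an unadjusted p under 0.05, 5 higher and 4 lower, beside 24.4% of all genes (12.4% higher and 12% lower). For Short against EV 0 passed, beside 0.0362% of all genes, and 8 had an unadjusted p under 0.05, 5 higher and 3 lower, beside 22% (15.2% and 6.88%). For Long against Short 0 passed and 1 had an unadjusted p under 0.05 (limma in each case), beside 0.00725% and 7.54% of all genes. The median log2 fold change of the 18 genes was 0.048 for Short and 0.012 for Long against EV, and that of all genes tested 0.041 and 0.039.

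ZC3H13, a zinc finger protein that keeps the writer complex in the nucleus, fell furthest. ZC3H13 (chromosome 13, 46528600 to 46626894, minus strand) had 25.3, 22.3 and 36.8 FPKM in EV replicates 1, 2 and 3, while the Short libraries had 15.0, 16.2 and 34.6 FPKM and the Long libraries 10.3, 9.84 and 29.5 FPKM. Replicate 3 was highest in every group, and in each passage EV was above Short and Short above Long. The log2 fold change of Long against EV was -0.88 (standard error 0.14, 95% interval -1.20 to -0.56, limma adjusted p = 0.00965), with -1.22, -1.11 and -0.31 in the passages. For Short against EV it was -0.41 (adjusted p = 0.143), and it passed without replicate 3 (-0.58, adjusted p = 0.0493). For Long against Short it was -0.46 (unadjusted p = 0.0085, adjusted p = 0.547). Long against EV did not pass without replicate 1 (-0.71, adjusted p = 0.129), without replicate 2 (-0.76, adjusted p = 0.062), without the replicate block (adjusted p = 0.637) or without the filter (0.104). After the GC correction the estimate stayed at -0.84 (adjusted p = 0.0515).

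FMR1, the RNA-binding protein of fragile X syndrome that also binds m6A-marked mRNA, was the second gene that passed. FMR1 (chromosome X, 146993437 to 147032645, plus strand) ranged from 38.7 to 44.3 FPKM with EV, from 31.7 to 42.3 FPKM with Short and from 30.3 to 39.8 FPKM with Long. In Short it was lower than in EV in each passage (-0.10, -0.28 and -0.066), with an estimate of -0.15 (limma adjusted p = 0.185). Long against Short was -0.0835 (adjusted p = 0.842). FMR1 was also lower in Long than in EV in each passage, by 0.20, 0.34 and 0.15 on the log2 scale. The log2 fold change of Long against EV was -0.23 (standard error 0.060, limma adjusted p = 0.0405). It did not pass without any one of the replicates (adjusted p = 0.139, 0.372 and 0.0933 without replicates 1, 2 and 3) without the replicate block (0.655), with only the groups compared (0.0762), without the trend (0.0909) or without the filter (0.108), and the GC correction took it to -0.066 (adjusted p = 0.437).

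VIRMA and CBLL1, other subunits of the writer complex, did not pass. VIRMA, its largest scaffold protein, had 16.9 ± 1.95 FPKM with EV and 15.4 ± 2.92 FPKM with Long (difference -0.13 on the log2 scale, limma adjusted p = 0.595), and the ubiquitin ligase CBLL1 had 15.7 ± 0.797 and 17.9 ± 0.699 FPKM (0.18, adjusted p = 0.113; SD over 3 libraries). Both were chosen for their place in the complex after their values had been seen. Whether ZC3H13 differed from them was not tested.

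By the Pearson correlation of log2(FPKM + 1) over the 9 libraries, the genes most like METTL3 among the 7509 genes whose mean reached 10 FPKM were LSG1 (0.937), PIGY (0.935) and NOP56 (0.925), with transcripts of 48.0%, 44.5% and 50.9% GC. The libraries of a passage share their deviations, so these values describe the libraries as much as the genes. METTL3 overlaps TOX4 on the opposite strand, RBM15 overlaps RBM15-AS1 and FTO overlaps RPGRIP1L. ZC3H13 overlaps CPB2-AS1 on the opposite strand and FMR1 overlaps FMR1-IT1 on the same strand. VIRMA overlaps ENSG00000254315 and CBLL1 overlaps CBLL1-AS1, both on the opposite strand. The use of strand in counting is not stated, so fragments of these partners cannot be told apart from those of the m6A-related genes.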

How the data were processed

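Strand-specific libraries of polyadenylated RNA were prepared from HEK293 cells 48 hours after transfection, 3 each for EV, Short and Long. In the editing analysis by the authors, Ensembl transcripts were the first mapping target, and leftover reads went to hg19 with TopHat (version 1.4.1). The submitters' processing notes also name Cufflinks, without its step, and the program that computed FPKM is not given in the sources used here. The values deposited by the authors are FPKM per Ensembl gene and library, without pooled replicates. The annotation release and the use of strand in counting are not given in the sources used here, and neither is the number of fragments, so depth is unknown. Because FPKM is relative to each library's total, scaling was varied.

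Groups and replicate numbers came from the sample titles. The replicate number stands for the cell passage, which the study's methods describe. Deviations from the group means were correlated across genes. For the 9 pairs from different groups with the same number the correlation was 0.327 to 0.813 (mean 0.552). The 18 pairs with different numbers had -0.634 to 0.366 (mean -0.256). Deviations within a group sum to 0, so the means are tied to each other and the negative mean is no separate support. Symbols, GRCh37 coordinates, and the length and GC content of the longest transcript came from GENCODE (47578 of 54562 identifiers and 97.1% of the genes tested matched).

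log2(FPKM + 1) was fitted with limma (version 3.58.1, R version 4.3.3; lmFit, eBayes with a trend) over the 13801 genes whose mean reached 1 FPKM, with 9 libraries, terms for group and for replicate number, and Benjamini-Hochberg adjustment over all genes. On simulated data for Long against EV with 13801 genes, 69 of 100 genes changed by 0.5 and 98 of 100 changed by 1.5 (log2) were recovered. There, 8 unchanged genes were called. The simulated noise was independent between genes and held no deviation related to GC content, so the 8 does not describe false calls in the real libraries. Changes smaller than 0.5 were not simulated. Ratios were compared with exact permutation tests (scipy version 1.17.1).

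The genes named were the 10 m6A genes, ADARB1, those of the wider m6A list past the threshold, and the 3 genes most like METTL3 (the same result for METTL14 is not reported here); VIRMA and CBLL1 were added later. The members and lists were chosen with earlier results of these data known. Alternatives were a pseudocount of 0.1, 2 scalings (TPM and median ratio), no replicate block, only the groups compared, no trend, no filter or a minimum mean of 5 FPKM, loess corrections (span 0.3) for GC content and length, and leaving out each replicate. RNA editing was not analysed here.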

Additional observations from a re-analysis of the deposited data

How the results depend on the processing

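The limits are those of 3 libraries per group without known depth. Over the alternatives the m6A genes past the threshold stayed at 0 of 10 in every comparison between plasmids, except that TPM and median-ratio scaling each gave 1, METTL14, for Long against EV. Counts over all genes moved more. For Short against EV the 5 genes became 2 without the replicate block, 1 without the filter, and 3 without the trend, with a minimum mean of 5 FPKM or after the GC correction with the block (2 to 59 with 1 replicate left out). For Long against EV the 1148 genes (275 higher, 873 lower) became 2 without the block, 752 with only the groups compared, 646 without the trend, and 1 without the filter or after the GC correction (2 to 1031 with 1 replicate left out). TPM gave 57 higher and 1217 lower, and the median ratio 135 and 1105. For Long against Short the 1 gene became 0 without the block, the trend or the filter and 3 with only the groups compared (0 to 9). Without the filter 2861 genes in place of 5028, and 2 m6A genes in place of 5, differed between passages. Of the wider list, 2 genes for Long against EV became 4 under TPM, 1 with only the groups compared or without the trend, and 0 without the block or the filter or after the GC correction (0 to 2 with 1 replicate left out; 0 to 1 for Short). The causes were not tested.

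Small log2 estimates changed sign. For Short against EV, TPM gave METTL3 -0.0744, RBM15 -0.0226, FTO -0.0172 and YTHDF2 -0.0456. The median ratio gave METTL3 -0.0417 and YTHDF2 -0.0132, and the length correction METTL3 -0.0559 and YTHDF2 -0.0217. The GC correction gave METTL14 0.0079, RBM15 -0.0448, YTHDF2 -0.0048, YTHDF3 0.0511 and YTHDC1 0.0508, and 0.0560 for the YTHDF3 to YTHDF2 ratio. For Long against EV, TPM gave METTL3 -0.0568 and RBM15 -0.0607, the median ratio METTL3 -0.0209 and RBM15 -0.0251, the length correction METTL3 -0.0347 and RBM15 -0.0219, and the GC correction RBM15 -0.0735, ALKBH5 -0.0048 and YTHDC1 0.0517. For Long against Short, TPM gave WTAP 0.0075 and YTHDF1 0.0008, the median ratio WTAP 0.0108 and YTHDF1 0.0042, the length correction WTAP 0.0036 and the GC correction YTHDC1 0.0009. With 1 replicate left out, Short against EV ran from -0.0376 to 0.0413 for METTL3, -0.0949 to 0.0457 for WTAP, -0.0339 to 0.1430 for RBM15, -0.0048 to 0.1389 for FTO, -0.1362 to 0.0871 for YTHDF3, -0.0761 to 0.1006 for YTHDC1 and -0.2004 to 0.0531 for the YTHDF3 to YTHDF2 ratio. Long against EV ran from -0.0648 to 0.0186 for WTAP, -0.0120 to 0.0334 for RBM15, -0.1173 to 0.0644 for YTHDC1 and -0.0003 to 0.1180 for the FTO to ALKBH5 ratio. Long against Short ran from -0.0157 to 0.0476 for METTL3, -0.0271 to 0.0300 for WTAP, -0.1096 to 0.0218 for RBM15, -0.0513 to 0.0319 for YTHDF1 and -0.0412 to 0.0306 for YTHDC1. The alternatives for ZC3H13 and FMR1 were added after seeing the data. Beyond ZC3H13, FMR1 and these counts, the replicate block changed no call of a named m6A gene against EV.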
